A study of Mus musculus with 10 samples.

Results

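The genes described here are Nfe2l2, which encodes the transcription factor NRF2, its inhibitor Keap1, and antioxidant genes that NRF2 is known to switch on. They were chosen by name from a list of 10 (Nfe2l2, Keap1, Nqo1, Hmox1, Gclc, Gclm, Txnrd1, Srxn1, Gsr and Osgin1), taking array features that the platform annotation assigns to a single gene symbol. Of the 10, 9 had such a feature, 1 each, among the 30142 genes of the array that did. Gclm, the modifier subunit of glutamate-cysteine ligase, had none, because its feature is shared with another symbol, and it was not analysed here. All 9 lay above the signal floor and were among the 17800 genes tested.

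The cells were 4T1, an established mouse mammary carcinoma line. Each culture was a three-dimensional collagen gel seeded with 50000 cells and kept for 5 days, at a collagen concentration of 2 mg/mL (low density, LD) or 3.5 mg/mL (high density, HD). All groups shared the same line, RPMI medium with fetal bovine serum and a medium change on day 3, and no other treatment is given in the labels. Total RNA of 5 LD and 5 HD samples was hybridised to Affymetrix MTA 1.0 arrays, 1 array per sample, and values are log2 signals after RMA. The labels do not say that samples of a group came from separate gels, and p-values then cover only the sample-to-sample spread, part or all of which may be technical. A single cell line was studied, and the number of arrays limits the precision.

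NRF2 is held low in unstressed cells by KEAP1, which binds it and presents it to a CUL3 ubiquitin ligase for destruction by the proteasome. Oxidants and electrophiles modify cysteines of KEAP1, NRF2 then escapes degradation, pairs with a small MAF protein in the nucleus and binds antioxidant response elements near its target genes. The control is therefore exerted largely on the protein, which an expression array does not measure. The targets make glutathione, recycle glutathione and thioredoxin, remove quinones and break down heme, and many tumours keep them high.

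The core of the antioxidant response element, TGACNNNGC, was looked for on both strands from 250 bases before to 50 bases after each RefSeq transcript start (GRCm38.p6). It overlaps the AP-1 site TGACTCA where the middle letters are TCA. RefSeq windows were held for 6 of the 9 measured genes (Nfe2l2, Keap1, Nqo1, Txnrd1, Srxn1 and Osgin1), and 3 of these 6, Nfe2l2, Txnrd1 and Srxn1, had a match in at least 1 window. Across the genome 14.0% of 27025 genes, and 12.4% of 32851 windows, held a match. A match is only a description of the letters. The 3 stretches below are shown because they belong to genes that moved in opposite directions between the densities (Nfe2l2 down, Txnrd1 and Srxn1 up). Capitals mark the 9 matching letters. For Nfe2l2 (chr2:75704664-75704913, minus strand) and for 1 of the 3 annotated starts of Txnrd1 (chr10:82858956-82859205, plus strand) the 250 bases before the start are given. For Srxn1 (chr2:152105542-152105570, plus strand) only the match, at bases 29 to 37 after the start, and its flanks are given.
Nfe2l2: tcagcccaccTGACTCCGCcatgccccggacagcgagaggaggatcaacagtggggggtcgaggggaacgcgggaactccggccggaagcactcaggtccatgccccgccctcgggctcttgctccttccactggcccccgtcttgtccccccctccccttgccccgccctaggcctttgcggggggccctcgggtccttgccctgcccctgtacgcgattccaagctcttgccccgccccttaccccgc
Txnrd1: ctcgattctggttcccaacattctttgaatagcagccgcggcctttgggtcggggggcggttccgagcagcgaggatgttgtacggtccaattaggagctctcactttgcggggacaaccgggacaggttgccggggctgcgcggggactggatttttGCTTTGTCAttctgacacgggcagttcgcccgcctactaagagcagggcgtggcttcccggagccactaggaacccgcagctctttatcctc
Srxn1: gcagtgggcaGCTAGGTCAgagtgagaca
In Nfe2l2 the element reads TGACTCCGC on the strand of the gene, at positions -240 to -232 from the start. In Txnrd1 it reads TGACAAAGC on the opposite strand, at positions -92 to -84, and in Srxn1 TGACCTAGC, also on the opposite strand. No match lay in the windows of Nqo1, Keap1 or Osgin1, nor in the other windows of Txnrd1.

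The comparison asks how these genes differ between cells grown in denser and in looser collagen. In HD, 5 of the 9 genes were higher (Nqo1, Gclc, Txnrd1, Srxn1 and Hmox1), all of them enzymes. The transcript of NRF2 itself was lower, as were Gsr and Osgin1, while Keap1 did not pass the test. The largest difference was in Nqo1, 1.74-fold higher, and Nfe2l2 was 1.20-fold lower. Differences were tested in limma with Benjamini-Hochberg adjustment over all 17800 genes at a threshold of 0.05.

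These counts need the background of the whole array. Over all genes tested, 50.9% were called, 31.4% higher and 19.5% lower in HD, so a call alone says little here. Calls were more frequent at higher signal. With a floor at the 75th percentile of features (6.96), which all 9 genes passed, 4201 of 10907 genes were called higher and 2634 lower. The groups did not overlap for 7 of the 9 genes, against 36.7% of all genes (21.6% with HD above and 15.1% with HD below). Only Nqo1 was called with a change of at least 1.5-fold, which 2.34% of all genes reached in either direction (0.775% as higher and 1.56% as lower). The median log2 change was 0.21 over the 9 genes and 0.055 over all genes tested. Because the genes were picked with earlier results of these data known, no test of the group as a whole is given. Higher genes made up 61.7% of all calls on the deposited values and 72.1% after quantile normalization or after scaling on control features.

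**Figure D1:**
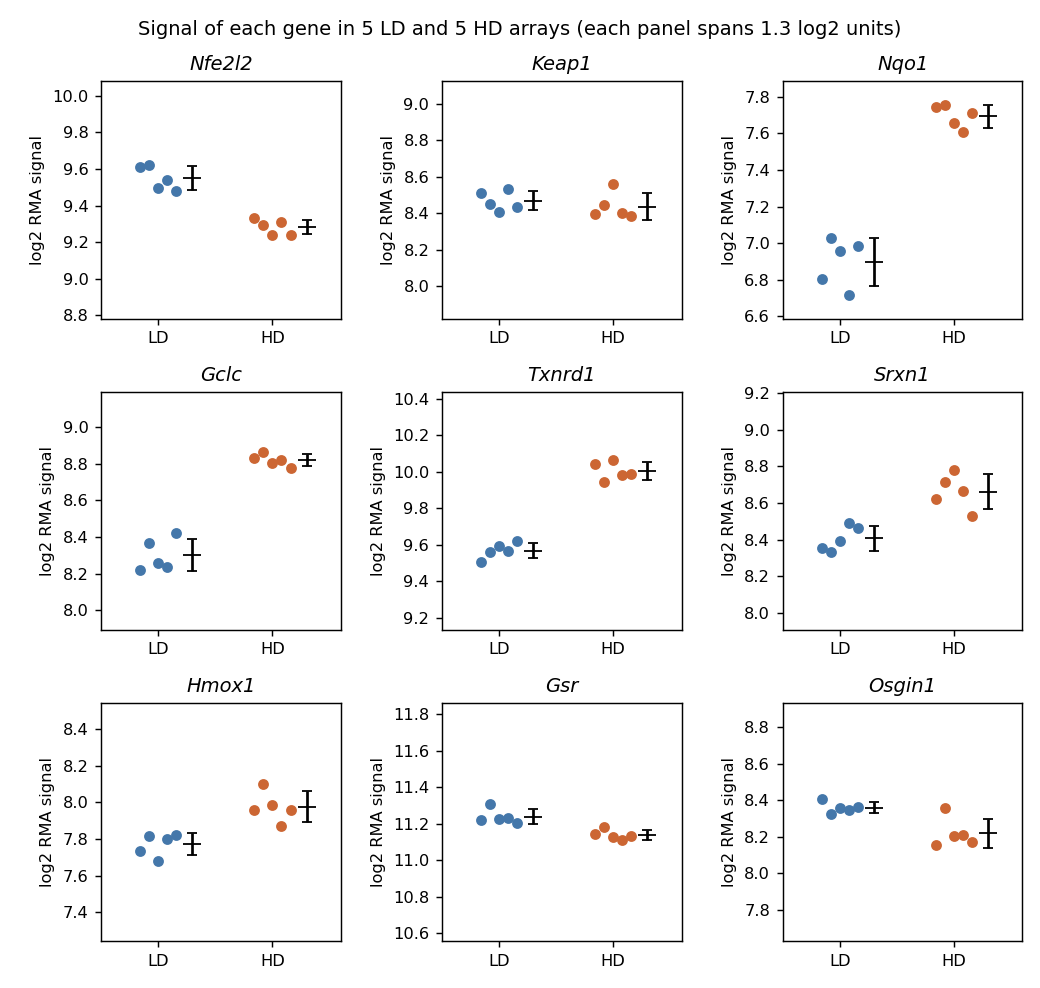
Log2 RMA signal (vertical axis) of each of the 9 genes in the 5 LD and 5 HD arrays. Points are arrays, and the bar beside them is the mean with the SD. Panels have the same height of 1.3 log2 units but different origins, so changes can be compared between panels and levels cannot. The HD arrays of Nqo1, Gclc and Txnrd1 stand well clear of the LD arrays, those of Nfe2l2 lie below them, and the groups of Keap1 overlap.

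Nfe2l2 had log2 signals of 9.61, 9.62, 9.50, 9.54 and 9.48 in LD replicates 1 to 5, and of 9.33, 9.29, 9.24, 9.31 and 9.24 in HD replicates 1 to 5. Every HD array lay below every LD array, with a gap of 0.15 between the groups. The mean fell from 9.55 ± 0.065 (SD, n = 5) to 9.28 ± 0.040, a log2 change of -0.27 ± 0.039 SE (95% confidence interval -0.35 to -0.18, limma adjusted p = 7.0e-05). Of all genes tested, 7.81% had a larger fall.

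Keap1, the adaptor that delivers NRF2 to the ubiquitin ligase, read 8.51, 8.45, 8.41, 8.53 and 8.43 in LD and 8.39, 8.44, 8.56, 8.40 and 8.38 in HD. The groups overlapped, and the highest of all 10 values was an HD array. The log2 change was -0.03 ± 0.043 SE (limma adjusted p = 0.56), and its 95% interval of -0.12 to 0.060 bounds the difference that these arrays could have missed.

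Nqo1 encodes a quinone reductase that passes electrons from NADH or NADPH to quinones, and it is widely used as a readout of NRF2 activity. Its signals were 6.80, 7.03, 6.95, 6.72 and 6.99 in LD and 7.74, 7.76, 7.66, 7.61 and 7.71 in HD. The lowest HD array was 0.58 above the highest LD array, the widest gap among the 9 genes. The mean rose from 6.90 ± 0.13 (SD, n = 5) to 7.69 ± 0.062, a log2 change of 0.80 ± 0.058 SE (limma adjusted p = 1.9e-07). This was 1.74-fold (95% interval 1.59 to 1.89), and Nqo1 ranked 34 among the 17800 genes by size of rise.

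Gclc encodes the catalytic subunit of glutamate-cysteine ligase, the rate-limiting enzyme of glutathione synthesis. It read 8.22, 8.37, 8.26, 8.24 and 8.42 in LD and 8.83, 8.86, 8.80, 8.82 and 8.78 in HD. All HD arrays were above all LD arrays, and they were closer together (SD 0.032) than the LD arrays (SD 0.088). The log2 change was 0.52 ± 0.043 SE, or 1.43-fold (limma adjusted p = 6.2e-07), and 1.38% of the genes tested rose more.

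Txnrd1, the cytosolic thioredoxin reductase, is a selenoprotein that keeps thioredoxin reduced at the expense of NADPH. Its signals were 9.50, 9.56, 9.59, 9.56 and 9.62 in LD and 10.04, 9.94, 10.07, 9.98 and 9.99 in HD, again with no overlap. The mean rose from 9.57 ± 0.043 (SD, n = 5) to 10.00 ± 0.049, which was 1.35-fold (log2 change 0.44 ± 0.037 SE, limma adjusted p = 6.7e-07). The difference was 9.49 times the pooled SD of the groups, the highest such ratio of the 9 genes.

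Srxn1 (sulfiredoxin), which restores over-oxidised peroxiredoxins, rose by less. LD arrays read 8.35, 8.33, 8.39, 8.49 and 8.46 and HD arrays 8.62, 8.72, 8.78, 8.67 and 8.53. The groups did not overlap, but only 0.039 separated the highest LD from the lowest HD array. The log2 change was 0.26 ± 0.050 SE, or 1.19-fold (limma adjusted p = 7.2e-04).

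Hmox1, heme oxygenase 1, cleaves heme into biliverdin, carbon monoxide and iron, and it is also repressed by BACH1 and can be induced by hypoxia. It read 7.73, 7.81, 7.68, 7.80 and 7.82 in LD and 7.96, 8.10, 7.99, 7.87 and 7.96 in HD. All HD arrays were higher, by a gap of 0.048. The log2 change of 0.21 ± 0.046 SE corresponds to 1.15-fold (limma adjusted p = 0.0020), and 16.1% of genes tested rose more.

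Gsr, the glutathione reductase that regenerates glutathione from its disulfide, differed in the other direction and by little. The LD arrays read 11.22, 11.31, 11.22, 11.23 and 11.20 and the HD arrays 11.14, 11.18, 11.13, 11.11 and 11.13. The groups were apart by 0.023, with LD replicate 2 high among the LD arrays. The log2 change was -0.10 ± 0.034 SE, or 1.07-fold lower (limma adjusted p = 0.023). The call was lost without LD replicate 2 (-0.08, limma adjusted p = 0.062) and without HD replicate 4 (-0.09, limma adjusted p = 0.059), and the change was -0.33 when arrays were scaled on their control features.

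Osgin1 (oxidative stress induced growth inhibitor 1), a target tied to the restraint of cell growth, read 8.41, 8.32, 8.36, 8.35 and 8.37 in LD. In HD it read 8.15, 8.36, 8.21, 8.21 and 8.17. HD replicate 2 lay within the LD range and the other 4 HD arrays lay below it. The log2 change was -0.14 ± 0.041 SE, or 1.10-fold lower (limma adjusted p = 0.012), and -0.18 without HD replicate 2.

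**Figure D2:**
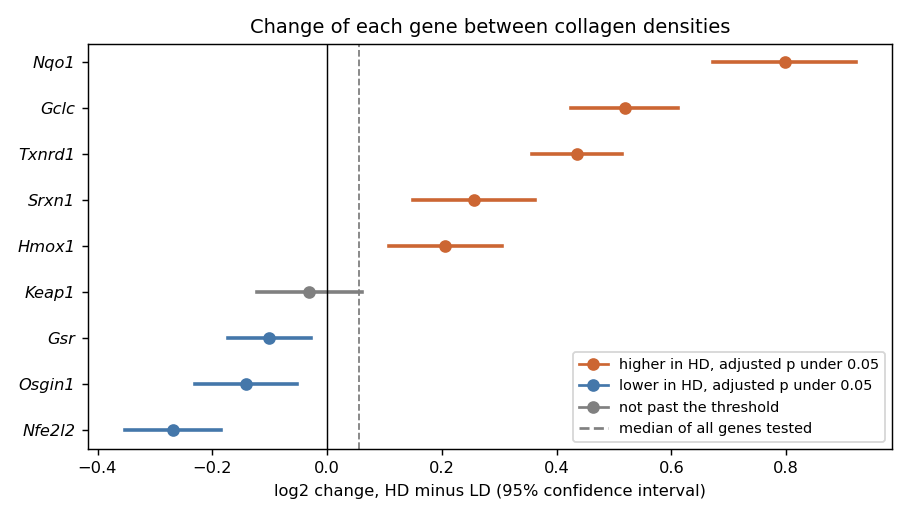
Log2 change from LD to HD (horizontal axis) of each gene, with its 95% confidence interval from limma. The dashed line is the median change of all genes tested, 0.055. Nqo1, Gclc and Txnrd1 lie farthest to the right, at 0.80, 0.52 and 0.44, and Nfe2l2 lies farthest to the left, at -0.27.

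The 5 genes that rose differed in size. The 95% interval of the log2 change of Nqo1 (0.67 to 0.92) lay above those of Gclc (0.43 to 0.61) and Txnrd1 (0.36 to 0.51). The interval of Txnrd1 overlapped slightly with that of Srxn1 (0.15 to 0.36), and those of Srxn1 and Hmox1 (0.11 to 0.30) overlapped widely. Pairs of genes were not tested against each other.

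Array by array, the genes did not move as a block within a density. Over the 10 arrays, after each group's mean was removed, the correlation of deviations was highest for Nqo1 and Gclc (r = 0.72), whose LD values were both highest in replicates 2 and 5 and lowest in replicates 1 and 4. Keap1 and Srxn1 followed (r = 0.63), and Txnrd1 and Osgin1 had the lowest value (r = -0.58). The median over all 36 pairs was 0.11. These are descriptions over 10 arrays that share each array's scaling, and they carry no test.

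**Figure D3:**
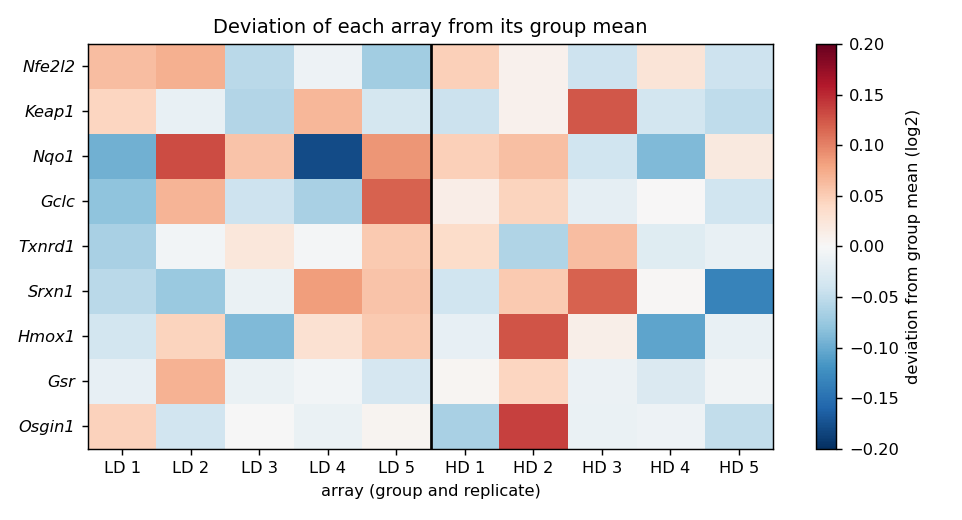
Deviation of each array (horizontal axis, LD replicates left of the line and HD replicates right) from the mean of its own group, in log2 units, for each gene (vertical axis). Red is above and blue below the group mean. Nqo1 and Gclc share their high and low LD arrays, and Osgin1 and Hmox1 are both high in HD replicate 2.

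Over all 10 arrays, the genes whose signal followed Nfe2l2 most closely were Gbp7 (r = 0.994), Rhbdl2 (0.993), Cbr2 (0.993), C9orf72 (0.992) and Ulk2 (0.992), all lower in HD. Such values mostly reflect the shared step between the groups, since 11.0% of genes had r above 0.9. With group means removed, Golga2 (r = 0.966), C9orf72 (0.950), Serinc3 (0.945), Gbp7 (0.945) and Cbr2 (0.942) were the closest, and 0.290% of genes exceeded 0.9. Among the 9 genes, Gsr deviated most like Nfe2l2 (r = 0.52) and Txnrd1 least (r = -0.53).

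The rest of the pathway was described through 7 lists of related genes. Of 105 entries, 90 were tested, and 41 rose and 17 fell, so 64.4% were called where 50.9% of all genes were. Over all genes tested 31.4% were called higher and 19.5% lower, which is the background for each list below. Genes of higher signal were called more often in general, as given above, and the lists were not matched for signal. For each list, the 3 called genes with the largest change are named below.

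Among partners and regulators of NRF2, more fell than rose. Of 14 tested genes, 6 fell and 2 rose, where 19.5% and 31.4% of all genes tested did. The median log2 change of the list was -0.08. Sqstm1, the autophagy receptor p62 that sequesters KEAP1 and is itself an NRF2 target, fell from 10.90 ± 0.064 (SD, n = 5) to 10.46 ± 0.048 and was 1.36-fold lower (limma adjusted p = 1.3e-06). Bach1, the repressor that competes for the same DNA elements, and Nfe2l3, a relative of Nfe2l2, were each 1.18-fold lower (log2 change -0.24 for both, limma adjusted p = 2.0e-04 and 2.6e-04). The change of Nfe2l3 was smaller after scaling on control features (-0.14) and after quantile normalization (-0.16). For each of these 3 genes the groups did not overlap. Of the small MAF partners, chosen after their values were seen, Mafk rose by 0.21, and Mafg (-0.07) and Maff (0.00037) did not pass the test.

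Glutathione supply and use had 8 of 15 tested genes higher and 0 lower by limma (0 lower also at an unadjusted p under 0.05), with a median log2 change of 0.14. When arrays were scaled on control features, 11 were called higher and 1 lower. Glrx5, a mitochondrial glutaredoxin of iron-sulfur cluster assembly, rose by 0.58 ± 0.053 SE (1.49-fold, limma adjusted p = 1.4e-06). Slc7a11, the cystine importer that supplies cysteine for glutathione, rose from 5.95 ± 0.12 (SD, n = 5) to 6.44 ± 0.037, or 1.40-fold (limma adjusted p = 4.7e-06). That LD level was only slightly above the LD median of negative control features (5.67), which limits the fold. Gpx1, the main cytosolic glutathione peroxidase, rose 1.34-fold, and by 0.14 instead of 0.43 on the log2 scale when arrays were scaled on control features. Gss, which follows glutamate-cysteine ligase in glutathione synthesis and is named here with its value known, rose by 0.23, and by 0.36 under that scaling. Chac1 of the same list, also named with its value known, rose more than Gss, by 0.40, and by 0.56 under that scaling.

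In the thioredoxin and peroxiredoxin list, 10 of 17 tested genes rose and 3 fell (median 0.11). Msrb3, a methionine sulfoxide reductase, rose 1.53-fold and Prdx3, the mitochondrial peroxiredoxin, 1.43-fold (limma adjusted p = 1.3e-07 and 2.0e-06). Txnip, which binds and inhibits thioredoxin, was 2.89-fold lower (log2 change -1.53 ± 0.089 SE). Thioredoxin itself (Txn1, the substrate of Txnrd1, named here with its values known) rose by 0.31. Scaled on the control features, the change of Txn1 was 0.04 and did not pass the test (limma adjusted p = 0.45).

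Detoxification and conjugation genes, many of them NRF2 targets in the liver, went both ways. Of 22 tested, 9 rose and 4 fell, with a median of 0.067, near the 0.055 of all genes tested. Abcc4, an exporter of organic anions, rose 1.47-fold, while Abcc3, another exporter of that family, was 1.75-fold lower (limma adjusted p = 1.6e-07 for each). Abcc3 went from 7.86 ± 0.12 (SD, n = 5) to 7.06 ± 0.079, a fall as large on the log2 scale (-0.80) as the rise of Nqo1. Mgst2, a microsomal glutathione transferase, was 1.36-fold lower (log2 change -0.44, and -0.24 after the control-feature scaling). Glutathione transferases are close paralogs, and their features may not separate them.

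NADPH feeds NQO1, thioredoxin reductase and glutathione reductase alike. Of 8 listed genes of NADPH supply, G6pdx and Tkt had no feature of a single symbol and were not measured here. Of the 6 tested, 3 rose and 1 fell (median 0.092). Taldo1 of the pentose phosphate pathway rose 1.31-fold and Me1, the cytosolic malic enzyme, 1.26-fold. Idh1, the cytosolic isocitrate dehydrogenase, was 1.57-fold lower (-0.65 ± 0.068 SE, limma adjusted p = 4.1e-06).

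Of 10 genes of heme and iron handling, 5 rose and 2 fell (median 0.10). Slc48a1, a heme transporter, rose by 0.25, and Fth1, the ferritin heavy chain that stores iron released by heme oxygenase, rose by 0.21 on the deposited values. Slc40a1, the iron exporter ferroportin, was called lower, but its signals of 5.72 in LD and 5.44 in HD lay at the medians of the negative control features (5.67 and 5.42), so no size is given. Under the control-feature scaling Slc48a1 rose by 0.14, Fth1 reversed (-0.11, limma adjusted p = 0.067) and Slc40a1 was not called (-0.04, limma adjusted p = 0.58). Of 6 genes of superoxide and peroxide removal, 4 rose and 1 fell (median 0.15). Sod2, the mitochondrial superoxide dismutase, and Park7 rose by 0.27 and 0.21. Cat (catalase) was lower by 0.18 with overlapping groups, and its log2 change was -0.35 after the control-feature scaling. Sod1 rose by 0.17 on the deposited values and was -0.04 and not called after the control-feature scaling; it was chosen after its values were seen.

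**Figure D4:**
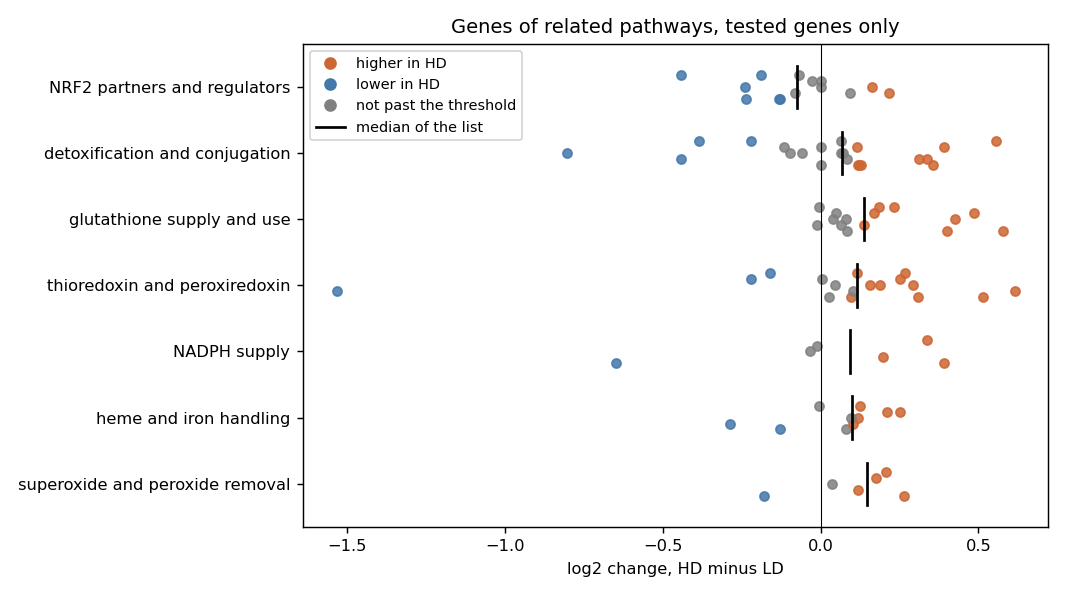
Log2 change from LD to HD (horizontal axis) of every tested gene in 7 lists of related genes (vertical axis). Points are genes, coloured by the limma call at an adjusted p of 0.05, and black bars are list medians. The glutathione list has no gene called lower, the list of NRF2 partners has a median below 0, and Txnip at -1.53 lies farthest from 0.

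Control features also differed between the groups. Negative control features had a median of 5.67 ± 0.052 (SD, n = 5) on the LD arrays and 5.42 ± 0.12 on the HD arrays. For positive controls the medians were 9.21 ± 0.011 and 9.28 ± 0.045, and for the background features, which moved against the negative controls, 3.47 ± 0.055 and 3.63 ± 0.057. Each of these 3 differences had a two-sided exact permutation p of 0.0079, the smallest that 5 against 5 arrays can give, while the features named ERCC did not pass (4.43 ± 0.048 and 4.52 ± 0.088, two-sided exact permutation p = 0.11). All 9 genes kept their direction when arrays were scaled on the negative and positive controls. Of 8 markers of the epithelial line, none was below the floor, and Krt8 and Krt18 were above 12. In HD 4 of the 8 were called lower (19.5% of all genes tested were), including Epcam (-0.60) and Krt19 (-0.76). The log2 of the summed unlogged signals of the 8 ran from 13.92 to 13.96 in LD and from 13.74 to 13.88 in HD. Defining markers of leukocytes (Ptprc, Adgre1 and Csf1r), of fibroblasts (Dcn and Lum) and of endothelium (Pecam1, Cdh5, Kdr and Tek) all lay below the floor of 5.24. The other fibroblast markers measured, Thy1 (5.59 over all arrays) and Pdgfrb (5.49), were just above it. Both lay near the medians of the negative control features (5.67 in LD and 5.42 in HD). Thy1 was called higher in HD (limma adjusted p = 0.012), but at that level no size is given. The log2 of the summed signals of the fibroblast list, genes below the floor included, was 6.74 to 6.88 in LD and 6.86 to 7.01 in HD. In the leukocyte list 1 of 5 genes fell, Cd68 (-0.74), and 1 rose, Cd14 (0.26). The log2 of its summed signals, taken in the same way, was 9.22 to 9.31 in LD and 8.79 to 9.21 in HD. The part of these differences in the results above was not tested. In bulk samples, fewer cells of a kind and less RNA per cell cannot be told apart.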

How the data were processed

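The deposited table holds a log2 signal for each feature on each array, computed by the authors with RMA according to the submitters' processing notes. The method corrects background, equalises arrays and summarises probes; it compresses folds. The log2 scale was read from the values (1.49 to 14.3). No software version, annotation or genome build is given in the sources used here. Symbols came from the platform annotation, updated through RefSeq gene IDs (22818 rows matched, 827 symbols updated).

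A gene was represented by its feature with the highest mean over 10 arrays and tested if that mean exceeded the median of all 72688 features (5.24). Groups were compared with limma 3.58.1 under R 4.3.3 (lmFit and eBayes, HD minus LD, two-sided), with no covariate, and the fit was tested on simulated data. Control medians were compared by exact permutation (SciPy 1.17.1).

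The members, lists and tests were chosen with earlier results of these data known. Named genes are all members and the 3 called genes with the largest change per list. Also named are the 5 genes most correlated with Nfe2l2 by each measure, leaving out unannotated symbols. Mafk, Mafg, Maff, Gss, Chac1, Txn1, Sod1, the cell type markers and the unmeasured G6pdx and Tkt are named outside this rule. Replicate numbers were checked for pairing: the correlations of deviations of same-numbered arrays were 0.19, -0.091, -0.036, 0.22 and -0.025, so no pairing was assumed. Alternatives were a replicate block, other scalings, filters, feature rules, variance models, array weights, a fold threshold and leaving out each array.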

Additional observations from a re-analysis of the deposited data

Results flagged for a closer look

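Among the 18 groups of 5 arrays (9 genes in LD and in HD), 2 held an array far from the other 4; chance gives about 1 in 20. Gsr in LD replicate 2 was 11.3081, against 11.2329 for the next array, a gap of 0.726 of the group's range. Osgin1 in HD replicate 2 was 8.35605, against 8.20964 for the next, a gap of 0.728 of the range. The critical value for 5 arrays is 0.71.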

How the results depend on the processing

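Apart from the added 1.5-fold threshold, 19 alternatives were run (10 of them leaving out 1 array). Over these 19, all 171 log2 changes of the 9 genes kept their direction, and 169 kept their side of the adjusted p of 0.05. The exceptions were Gsr without LD replicate 2 and without HD replicate 4. Part of the shared direction was fixed in advance. The replicate block, filters, feature rule and variance model leave the log2 change of these 9 genes as it was. Under those settings only the adjusted p could move. The 5 rises and the falls of Nfe2l2 and Osgin1 were called in each of the 19. With a replicate block, 5 genes were higher and 3 lower, as without it, and 5654 and 3404 genes of the array were called; the block changed no call among the 9. Leaving out 1 array gave 5 higher and 2 to 3 lower members, and 4704 to 5603 higher and 3063 to 3506 lower genes. Under the control-feature scaling 8785 genes were called higher. With a threshold of 1.5-fold added, 1 member was higher and 0 lower (138 and 278 of all genes), because only Nqo1 exceeded it. The control-feature scaling moved Gsr from -0.10 to -0.33. That scaling is linear within each array, so the size of its shift depends on a gene's signal level. Fth1, at a mean of 12.29, moved from 0.21 to -0.11, and Slc7a11, at 6.19, from 0.49 to 0.68. Why the control features differed between the groups was not tested. Over the same 19 the number of higher genes in the detoxification list ran from 6 to 13 and in the glutathione list from 5 to 11. The 5 came from the 75th percentile filter, under which 9 genes of the glutathione list were tested instead of 15. With the 1.5-fold threshold the number was 0 in both lists. Arrays limit precision by their number, and Slc7a11, Slc40a1, Thy1 and Pdgfrb lay near the level of the negative controls in LD.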
